A study of Mus musculus with 4 samples.

Results

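A set of 10 genes that have been described together in the macrophages of scarred and fat-laden tissue were followed through the nonparenchymal cells of the mouse liver: Trem2, Tyrobp, Gpnmb, Spp1, Cd9, Fabp4, Fabp5, Lpl, Cd36 and Cd63. They were taken by symbol, and all 10 were found among the 55450 genes of the count tables. Their transcripts, counted as unique molecular identifiers (UMIs), were summed per library and cell class, and macrophages with UMIs of C1qa, C1qb and C1qc, the 3 chains of the complement starter C1q, were set against macrophages with none and against the other cell classes.

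Each of 4 groups held 1 wild-type C57B6 mouse of 18 to 20 weeks. The TAA mouse had thioacetamide, a liver toxin used to produce fibrosis, injected into the peritoneum for 12 weeks. In addition to the same injections, celecoxib, a cyclooxygenase inhibitor, was given by gavage from week 5, at 7.5 mg/kg (TAA+C7.5) or at 30 mg/kg (TAA+C30). The control mouse received saline. With 1 mouse per group, a difference between groups has no replicate check, and intervals on sums and ratios cover counting error only (95%, exact). Cells were freed from the liver with a dissociation kit, red cells were lysed and most hepatocytes were spun out, so the levels describe cells that survived this isolation.

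Trem2 is a lipid-sensing surface receptor of macrophages, and Tyrobp (DAP12) is the adapter that carries its signal. Gpnmb is a membrane glycoprotein of late endosomes and lysosomes, Cd63 and Cd9 are tetraspanins, and Spp1 is the secreted phosphoprotein osteopontin. Lpl releases fatty acids from lipoproteins, Cd36 takes up fatty acids and oxidised lipoproteins, and Fabp4 and Fabp5 carry fatty acids inside the cell. In the liver, resident Kupffer cells line the sinusoids, while monocytes enter from the blood and can become macrophages within the tissue.

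The kept libraries held 6460 (TAA), 5911 (TAA+C7.5), 6062 (TAA+C30) and 5666 (control) cells, with a median of 4571, 1967, 3100.5 and 3357 UMIs per cell, and any pair of libraries shared 9 to 14 cell barcodes. Macrophages were the cells of a Kupffer cluster (led by Clec4f, Vsig4 and Fcna) and of a pair of monocyte or macrophage clusters, numbers 17 (led by Ms4a7, C1qb, Gpnmb and C1qa) and 18 (led by F13a1, Vcan and Fn1). The 10 genes and C1q were left out of the clustering and of the marker lists. They could still take places among the leading genes of a cluster, which the naming rule also read. All 3 C1q genes were detected in 770 of 1148 macrophages (67.1%) in the TAA library, 191 of 439 (43.5%) in TAA+C7.5, 403 of 1327 (30.4%) in TAA+C30 and 287 of 471 (60.9%) in the control. No T cell of any library carried all 3. The T cells with none of the 3 were 85.2%, 98.0%, 94.2% and 91.4% in the same order. The background of C1q UMIs thus differed between libraries, and its part in the C1q-negative group was not tested. None of the 3 was detected in 243, 223, 743 and 81 macrophages of the same libraries, which lay almost wholly outside the Kupffer cluster in the TAA-treated mice (3, 0 and 0 cells inside it, and 18 in the control).

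The make-up of the C1q-positive macrophages differed between libraries, and every contrast of TAA with control below carries this difference. In the TAA library 115 of the 770 cells were in the Kupffer cluster, in TAA+C7.5 35 of 191, in TAA+C30 18 of 403, but in the control 266 of 287. Their median depth was 12777, 5452, 6928 and 1824 UMIs per cell. Summed endothelial markers reached 135, 166 and 54.4 CPM (a gene's UMIs over all UMIs of the sum, scaled to the same total for every sum) in the C1q-positive macrophages of the TAA-treated libraries and 1934 CPM in the control, where all 10 endothelial markers had UMIs. Summed erythroid markers reached 31.7, 33.6 and 17.2 CPM, against 5498 CPM in the control. The part of these transcripts in the results was not tested.

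Trem2 (chr17:48346401-48354147, plus strand) and Gpnmb (chr6:49036546-49070929, plus strand; GRCm38 coordinates of GENCODE M21) had the most similar profiles of any pair among the 10 over the cell classes, with Pearson r = 0.91 over 49 sums of class and library; sums of 1 library share its depth and its free RNA. Their promoters are shown because the pair moved together (RefSeq, GRCm38.p6, chr17:48346151-48346450 and chr6:49036268-49036567, both plus strand, 250 bases before to 50 after the RefSeq gene start). TGANTCA is a loose form of the AP-1 type pattern, with any base at N, and binding was not tested. Capitals mark a match to it, with A at N in Trem2 and C in Gpnmb:
Trem2: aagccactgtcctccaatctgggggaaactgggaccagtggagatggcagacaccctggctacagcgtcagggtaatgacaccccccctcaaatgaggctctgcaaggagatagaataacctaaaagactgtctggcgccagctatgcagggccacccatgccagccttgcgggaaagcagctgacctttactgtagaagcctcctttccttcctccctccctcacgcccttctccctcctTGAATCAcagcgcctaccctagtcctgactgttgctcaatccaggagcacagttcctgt
Gpnmb: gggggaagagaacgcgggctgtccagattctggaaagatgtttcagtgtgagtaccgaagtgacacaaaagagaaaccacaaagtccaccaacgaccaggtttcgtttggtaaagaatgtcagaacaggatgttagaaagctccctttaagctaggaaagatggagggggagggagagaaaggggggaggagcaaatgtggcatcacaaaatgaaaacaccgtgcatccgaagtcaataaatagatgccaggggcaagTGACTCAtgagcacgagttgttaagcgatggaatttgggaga
The match begins 9 bases before the start of Trem2 and at base 9 after the start of Gpnmb. TGANTCA, which reads the same on both strands, was in 7.81% of the 32851 promoters of the table and in 2 of the 7 that belong to 6 of the 10 genes (Trem2, Gpnmb, Spp1, Cd9, Cd36 and Cd63; Spp1 has 2). Among 5 other patterns searched on both strands, TCACGTG and the DR1 element had no match in those 7 windows. GAGGAAGT and TATAAA were each found in 1 (Spp1), against 3.20% and 13.6% of all promoters, and GGGCGG in 2 (Cd9 and Cd36), against 35.7%.

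C1q-positive macrophages carried more of 7 of the 10 transcripts than C1q-negative macrophages, and less of 1. Cd63, Gpnmb, Cd36, Cd9, Lpl, Spp1 and Trem2 were higher and Tyrobp was lower in edgeR's quasi-likelihood test over the 8 sums (both states in each of 4 mice, with the mouse as a block; Benjamini-Hochberg adjusted p under 0.05). The 4 mice each had a different treatment, so the test pools the treatments. Trem2, Gpnmb and Fabp5 were not higher with C1q in the control mouse. For Cd63 and Cd9 the counting interval of the fold included 1 in that mouse. Over all 9068 genes tested, 18.0% were called higher and 16.7% lower, so a call by itself was common between these states. The median log2 fold change of all genes tested was 0.02. The C1q-negative cells came mostly from the monocyte or macrophage clusters, in which monocytes were not set apart from macrophages. Of 14 monocyte genes, 13 were lower with C1q, and the part of monocytes in this contrast was not tested.

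The largest differences among the 10 were in the lysosomal pair. Cd63 (chr10:128900989-128912822) stood at 462, 452 and 599 CPM in the C1q-positive macrophages of the TAA, TAA+C7.5 and TAA+C30 libraries and 30.3 CPM in those of the control, against 22.3, 12.4, 16.1 and 13.1 CPM in C1q-negative macrophages of the same libraries. The states did not overlap over the 4 libraries, and the log2 fold change was 4.60 ± 0.45 (SE, adjusted p = 8.59e-05, edgeR). In the control, on 24 and 7 UMIs, the fold was 2.30 with a counting interval of 0.963 to 6.33. Gpnmb stood at 571, 468, 457 and 2.52 CPM in C1q-positive macrophages, against 30.1, 24.8, 56.2 and 5.63 CPM in C1q-negative ones. Its log2 fold change was 3.64 ± 0.39 (adjusted p = 1.54e-04, edgeR), and the control library, with 2 and 3 UMIs, did not share in it.

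The receptor and its adapter went in opposite directions. Trem2 was at 593, 645, 754 and 32.8 CPM in the C1q-positive macrophages of the TAA, TAA+C7.5, TAA+C30 and control libraries, and at 181, 120, 170 and 52.5 CPM in the C1q-negative ones. It was higher with C1q in the 3 TAA-treated libraries and not in the control, and its log2 fold change was 1.64 ± 0.41 (adjusted p = 0.014, edgeR). The call was lost when any 1 of those 3 libraries was left out, with fold changes of 1.60 without TAA (adjusted p = 0.077), 1.40 without TAA+C30 (0.088) and 1.26 without TAA+C7.5 (0.135). Tyrobp (chr7:30413760-30417585) was at 1983, 2098, 2210 and 979 CPM with C1q and 2840, 3067, 2820 and 2496 CPM without it, lower in 4 of 4 libraries, with a log2 fold change of -0.74 ± 0.24 (adjusted p = 0.042, edgeR). This call, too, was lost without any 1 of the 3 TAA-treated libraries (adjusted p = 0.151 without TAA, 0.091 without TAA+C30, 0.126 without TAA+C7.5).

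**Figure D1:**
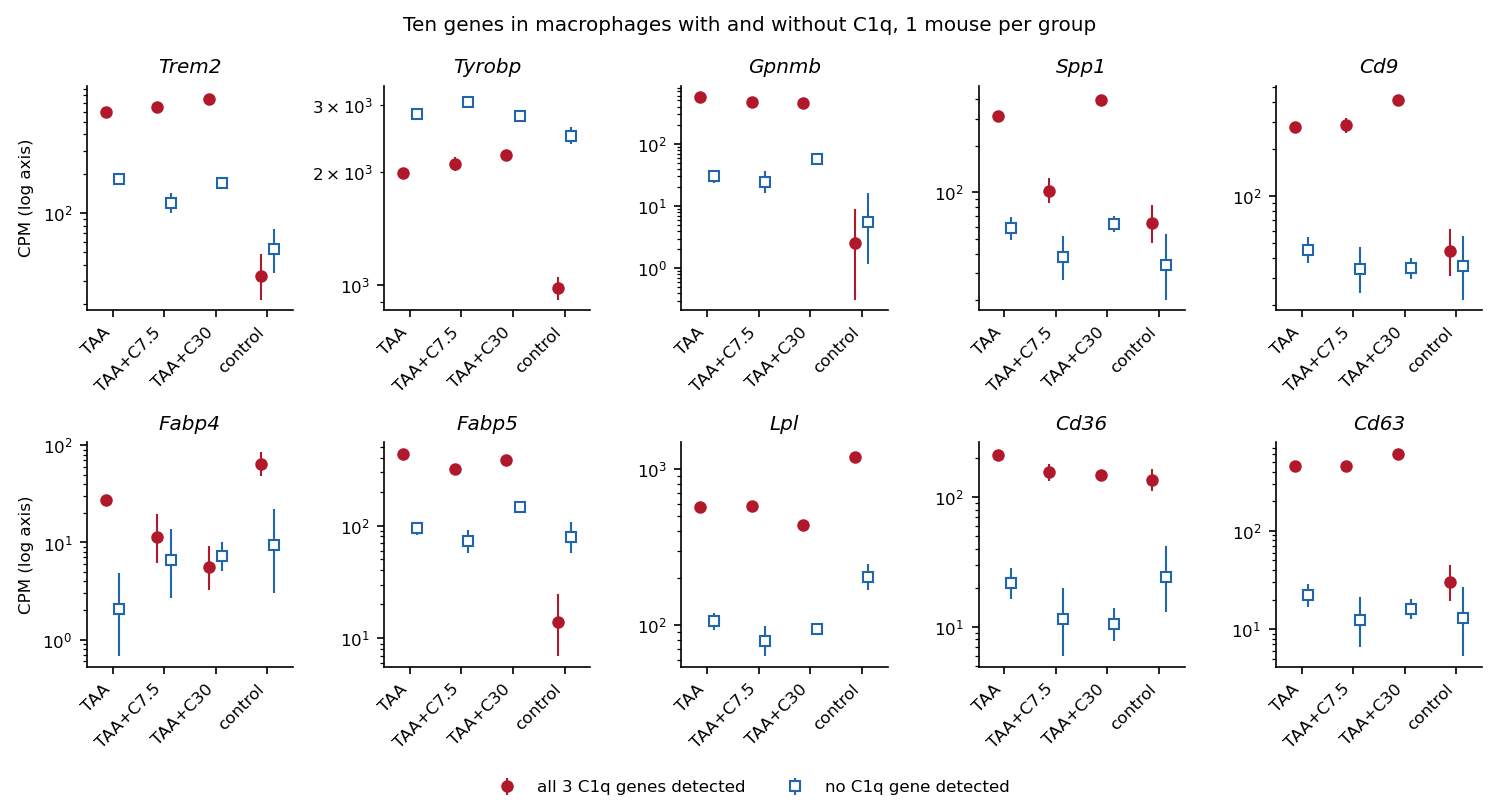
Levels of the 10 genes in CPM (log axis) in macrophages with all 3 C1q genes (filled circles) and with none (open squares), by library, with exact 95% Poisson intervals where they exceed the symbol. Cd36, Lpl and Spp1 lie higher with C1q in all 4 libraries and Tyrobp lower in all 4. Cd63 and Cd9 lie higher too, but in the control the counting interval of the fold includes 1 (0.963 to 6.33 and 0.689 to 2.29). Trem2, Gpnmb and Fabp5 are not higher with C1q in the control.

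Of the genes of fatty acid release and uptake, Lpl (chr8:68880491-68907448, plus strand) was at 571, 580, 436 and 1196 CPM in C1q-positive macrophages, against 106, 79.0, 94.4 and 204 CPM in C1q-negative ones. The fold per library ran from 4.62 to 7.34 (log2 fold change 2.45 ± 0.17, adjusted p = 1.27e-05, edgeR). In the monocyte or macrophage class alone the Lpl fold change was 1.80 and was not called (adjusted p = 0.099, edgeR); there the C1q-positive cells of the control, 21 in number, held 75.8 CPM on 10 UMIs. Cd36 (chr5:17781690-17888801, minus strand) was at 212, 156, 147 and 136 CPM with C1q and 21.9, 11.4, 10.5 and 24.4 CPM without it (3.38 ± 0.22, adjusted p = 1.02e-05, edgeR). With classes taken from marker scores the Cd36 fold change was 1.02 and was not called (adjusted p = 0.073, edgeR). In that setting the C1q-negative macrophages took in 87, 72, 71 and 48 cells of unnamed clusters led by Ace (TAA, TAA+C7.5, TAA+C30 and control). The main test left these clusters out, and they held more Cd36 than C1q-positive macrophages in every library. Their part in the lost call was not tested. Platelets also carry Cd36 and Cd9. In C1q-positive macrophages the platelet gene Pf4 was at 94.2, 156, 172 and 68.1 CPM, while Ppbp, Itga2b, Gp9 and Treml1 were each at or below 1.40 CPM, with Gp9 at 0 in every library; their part in the Cd36 and Cd9 values was not tested.

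The carriers Fabp4 (chr3:10204088-10208576) and Fabp5 (chr3:10012548-10016607), both on chromosome 3, did not pass the test. Fabp5 was at 431, 316, 382 and 13.9 CPM in C1q-positive macrophages and at 94.5, 72.4, 146 and 78.8 CPM in C1q-negative ones, with a log2 fold change of 1.26 ± 0.56 (adjusted p = 0.114, edgeR). The control went the other way from the 3 TAA-treated libraries, and without it the fold change was 1.80 and passed (adjusted p = 1.00e-06). Fabp4 had few UMIs, 278, 13, 16 and 51 with C1q and 5, 7, 34 and 5 without, and its log2 fold change was 1.56 ± 0.54 (adjusted p = 0.052, edgeR). When classes were taken from marker scores it was reversed, at -1.60 (adjusted p = 0.0027); in that setting 273 of the 279 Fabp4 UMIs of C1q-negative macrophages in the TAA library came from 87 cells of unnamed clusters led by Ace.

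Cd9 (chr6:125460266-125494791) and Spp1 (chr5:104435118-104441050) completed the higher set. Cd9 was at 280, 287, 415 and 44.1 CPM with C1q, against 45.4, 34.3, 34.5 and 35.6 CPM without it (2.70 ± 0.41, adjusted p = 0.0012, edgeR), and T cells held 26.8 to 33.2 CPM of it. With classes from marker scores the Cd9 fold change was 1.28 and was not called (adjusted p = 0.107, edgeR). The clusters led by Ace, part of the C1q-negative side in that setting, held more Cd9 than C1q-negative macrophages of the main test in every library. Spp1 was at 312, 103, 396 and 63.0 CPM with C1q and 58.6, 38.1, 62.4 and 33.8 CPM without it (2.03 ± 0.28, adjusted p = 5.47e-04, edgeR). The Spp1 call was lost where C1q-negative meant not all 3 genes (log2 fold change 1.25, adjusted p = 0.069) and where C1q was read after thinning every cell to 1000 UMIs (1.16, adjusted p = 0.097). T cells held 41.6, 20.7, 16.6 and 28.4 CPM of Spp1 in the same libraries.

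Around these genes, lists of related genes, without the 10 themselves, were counted in the same test, where 18.0% of all genes were higher and 16.7% lower. Of 26 genes of lysosome and cholesterol handling, 23 were tested, 14 were higher and 0 lower (median log2 fold change 0.78), with Nr1h3, the sterol sensor LXR alpha, at 3.95 and its target Abca1, a cholesterol exporter, at 3.06. Of 22 tested genes of fatty acid uptake, storage and burning, 8 were higher, among them the desaturase Scd1 (3.12) and the phospholipid transfer protein Pltp (3.03), and 2 were lower, among them Dgat2 (-2.82). Of 12 genes of Trem2 signalling and its ligands, 4 were higher, including the ligand Apoe (3.02) and the protease Adam10 (1.04), and 3 lower, including Lgals3 (-1.24) and Plcg2 (-1.08), with a median of 0.21.

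Among 20 tested other genes of scar-associated or lipid-associated macrophages, 12 were higher, led by the elastase Mmp12 (6.69) and Igf1 (5.55), and 3 were lower, including Anxa2 (-3.04) and Plaur (-2.40). All 12 tested resident Kupffer genes were higher, led by Folr2 (11.7) and Cd5l (8.42). Nr1h3 was counted both in this list and in the lysosome and cholesterol list, here and in the contrasts below. Of 14 monocyte genes 13 were lower, among them Vcan (-6.14) and Hp (-5.20), and Treml4 (0.96) was higher. Some genes of the last pair of lists also served to name the classes the cells were drawn from, so these counts are not free of the naming. The C1q state itself was not set by these genes. Of the C1q-positive cells, 655, 156 and 385 in TAA, TAA+C7.5 and TAA+C30 were of the monocyte or macrophage class.

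Among named classes with at least 50 cells in at least 2 libraries, Trem2, Gpnmb and Lpl had their highest median level in C1q-positive macrophages. In this order the macrophages were split by C1q state, so the Kupffer cluster was not a class of its own. For Trem2 the median over libraries was 619 CPM there, 145 CPM in C1q-negative macrophages, 57.9 CPM in myeloid progenitors and at most 6.28 CPM in any other of these classes. Outside this set, it was at 11.5 to 82.4 CPM in the unnamed clusters led by Ace and at 39.7 CPM in the 12 fibroblast or stellate cells of TAA+C30. For Gpnmb the medians were 463 CPM, 27.4 CPM and 14.1 CPM in the same order, and at most 7.49 CPM elsewhere; the ranges over libraries of the first and second overlapped for both genes, through the control. Lpl, at a median of 576 CPM with C1q and 100 CPM without, did not overlap between the states, and its next class was the hepatocyte at 48.3 CPM. C1q-positive cells of the Kupffer cluster held 1217, 1540, 1525 and 1420 CPM of Lpl (TAA, TAA+C7.5, TAA+C30 and control). Those of the monocyte or macrophage class held 470, 419, 390 and 75.8 CPM. The last value, on 10 UMIs, lay below the 204 CPM of C1q-negative macrophages in the control. Lpl was at 170 CPM in the fibroblast or stellate cells of TAA+C30 and 135 CPM in those of the control, with 12 cells each.

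The other 7 were highest elsewhere in this set of classes. Spp1 was foremost a transcript of cholangiocytes, the bile duct cells, at 22175 to 31463 CPM, against 63.0 to 396 CPM in C1q-positive macrophages, in which the summed 6 cholangiocyte markers reached 5.31 to 8.78 CPM. Fabp4 and Cd36 were highest in endothelial cells, at a median of 1160 and 1236 CPM, where both are known as genes of capillary fatty acid transport, and the C1q-positive macrophages stood at 19.5 and 151 CPM, after endothelial cells for Cd36 and after endothelial cells and hepatocytes for Fabp4. The unnamed clusters led by Ace, which are not in this order, held 330 to 519 CPM of Cd36 and 224 to 552 CPM of Fabp4. Cd9 and Tyrobp were highest in neutrophils, at 1380 and 4886 CPM. Cd63 was led by cholangiocytes (491 CPM) and then C1q-positive macrophages (457 CPM), and Fabp5 by endothelial cells (356 CPM), C1q-positive macrophages (349 CPM) and cholangiocytes (329 CPM), each overlapping the next.

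**Figure D2:**
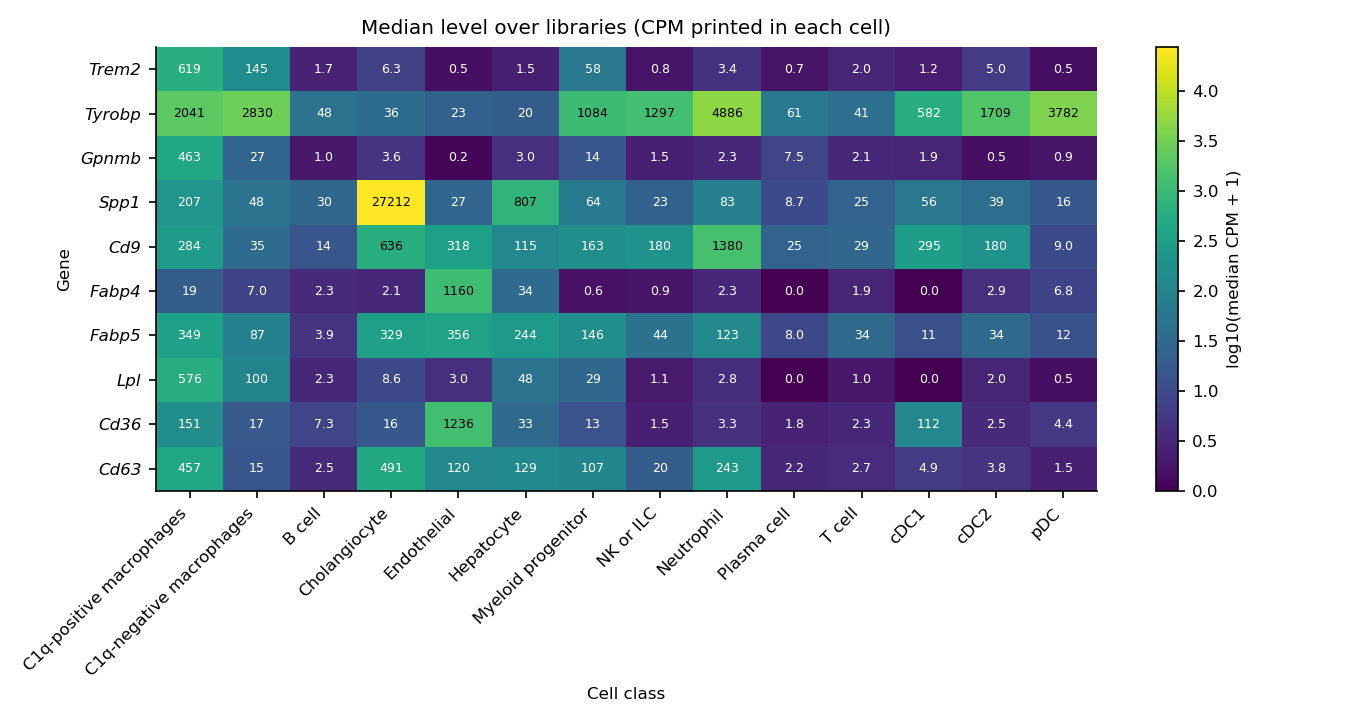
Median level over libraries of each of the 10 genes (rows) in each cell class with at least 50 cells in at least 2 libraries (columns), printed in CPM and coloured by log10 of CPM plus 1. Macrophages are shown by C1q state, not by cluster. C1q-positive macrophages hold the highest value for Trem2, Gpnmb and Lpl, cholangiocytes for Spp1, and endothelial cells for Fabp4 and Cd36.

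The genes most like each of the 10 over the 49 sums, among 8748 compared, followed these classes. Beside Gpnmb, Trem2 was most like Fcgr1 (r = 0.91) and Ms4a6d (0.89), and among the 3 genes most like Gpnmb were Ms4a7 (0.91) and Olfml3 (0.91). Lpl was most like Adgre1, which encodes the macrophage antigen F4/80 (0.90), and Siglec1 (0.89), and Tyrobp like Fcer1g (0.93), another adapter of the same kind. Fabp4 was most like Gata4 (0.96) and Cldn5 (0.95), both of endothelial cells, and Spp1 like Gstm5 and Bicc1 (0.95 and 0.94). Cd63 and Fabp5 shared Cxcl1 as the closest gene (0.88 and 0.83) and had r = 0.81 with each other.

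In C1q-positive macrophages, 7 of the 10 genes were at least 2-fold higher in the TAA library than in the control and 1 was at least 2-fold lower, on a log2 scale with 10 CPM added to both sides. Over 13112 genes measured in this contrast, 4.05% were that much higher and 6.82% that much lower; the median log2 ratio was 2.28 over the 10 and -0.08 over all. There was 1 mouse on each side and no test.

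Gpnmb had the widest ratio: 571 CPM in TAA and 2.52 CPM in the control, a ratio of 227 with a counting interval of 62.7 to 1871, since the control held 2 UMIs. Fabp5 stood at 431 CPM against 13.9 CPM in the control (log2 ratio 4.21), Trem2 at 593 against 32.8 CPM (3.82) and Cd63 at 462 against 30.3 CPM (3.55). Cd9 (2.42), Spp1 (2.14) and Tyrobp (1.01) had smaller ratios. Lpl was lower, at 571 CPM in TAA and 1196 CPM in the control (-1.05), Fabp4 was at 27.4 against 64.3 CPM (-0.99), and Cd36 at 212 against 136 CPM (0.60). TMM scaling shifts the CPM ratios of this contrast by 0.40 on the log2 scale before the 10 CPM are added, and it leaves Lpl at -0.66 and Cd36 at 0.98, both within 2-fold.

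Because the control cells were mostly Kupffer cells, the contrast was repeated within clusters. In the Kupffer cluster alone (129 TAA cells, 371 control cells), 6 of the 10 were at least 2-fold higher and 1 lower, where 4.45% and 4.77% of 10088 genes were. Gpnmb was at 149 CPM in TAA and 2.56 CPM in the control (log2 ratio 3.66), Trem2 at 231 and 20.5 CPM (2.98), Cd63 at 105 and 5.12 CPM (2.92) and Cd9 at 98.4 and 20.5 CPM (1.83). Cd36, at 435 against 163 CPM (1.37), and Tyrobp, at 1714 against 801 CPM (1.09), were also higher there, and Fabp4 was lower, at 7.18 against 66.6 CPM (-2.16). Transcripts of other cells moved the same way as Fabp4 in this cluster: the endothelial Clec4g was at 7.90 CPM in TAA and 168 CPM in the control, Stab2 at 50.3 and 172 CPM, the hepatocyte albumin gene Alb at 35.9 and 221 CPM and the globin Hbb-bs at 722 and 12449.8 CPM. Their part in the values of the Kupffer cluster was not tested.

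Spp1 and Lpl did not keep their pooled 2-fold differences inside the Kupffer cluster. Fabp5 was higher in TAA there too, but by less than 2-fold once 10 CPM were added to both sides. Spp1 was at 72.5 CPM in TAA and 81.9 CPM in the control there (log2 ratio -0.16), and in cluster 17 at 330 against 165 CPM. Lpl was at 1215 against 1353 CPM in the Kupffer cluster (-0.15), and in cluster 17 at 440 CPM in TAA and 261 CPM in the control, which had only 29 cells. The lower Lpl of the pooled C1q-positive macrophages was not seen as a 2-fold decrease in either cluster, and within C1q-positive cells of the monocyte or macrophage class it was reversed (log2 ratio 2.48, against 21 control cells). Fabp5 was largely a transcript of cluster 17 in the TAA library, at 462 CPM, against 35.2 CPM in the Kupffer cluster of the same library, while its control values were 22.9 and 14.1 CPM.

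**Figure D3:**
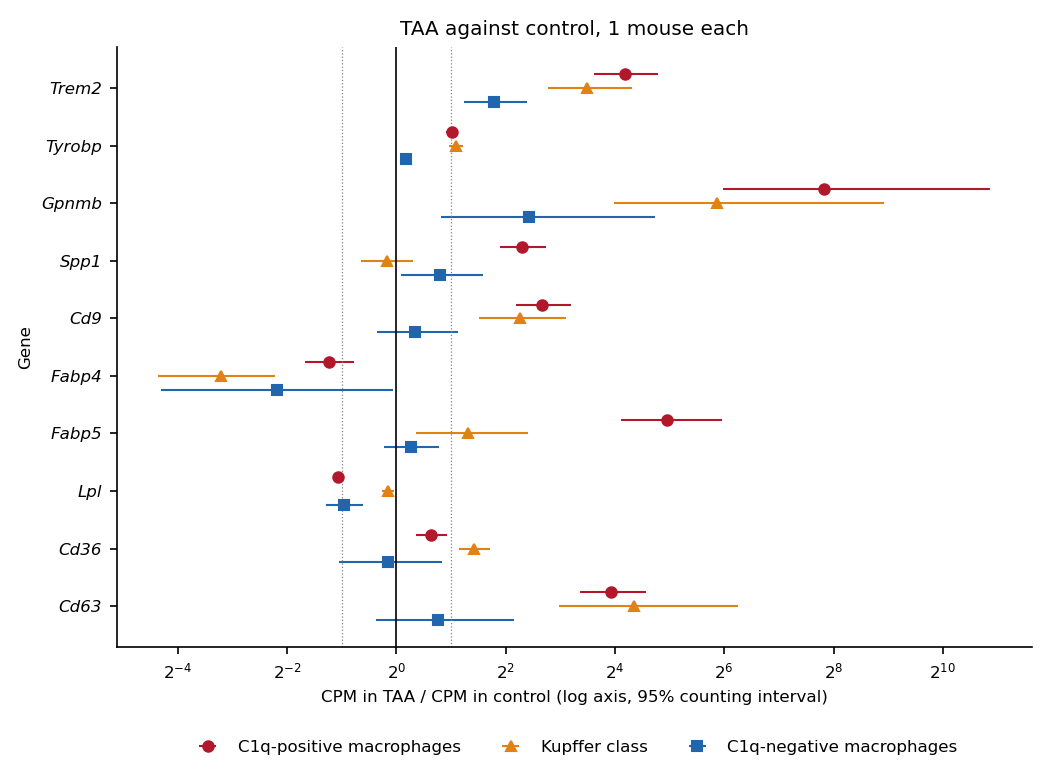
Ratio of CPM in the TAA library to CPM in the control (log axis) for each gene in C1q-positive macrophages (circles), the Kupffer cluster (triangles) and C1q-negative macrophages (squares), with 95% counting intervals; dotted lines mark a ratio of 2 in either direction. Gpnmb, Trem2, Cd63 and Cd9 lie to the right in the first pair of populations, while Spp1 and Lpl are near a ratio of 1 in the Kupffer cluster.

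In C1q-negative macrophages, 2 of the 10 were at least 2-fold higher in TAA than in the control and 0 lower, where 1.97% and 1.98% of 9764 genes were. These were Trem2, at 181 CPM in TAA and 52.5 CPM in the control (log2 ratio 1.61), and Gpnmb, at 30.1 and 5.63 CPM (1.36, 73 and 3 UMIs). Transcripts of other cells were lower in the same TAA cells, with Hbb-bs at 416 CPM in TAA and 6804 CPM in the control, Alb at 19.0 and 80.6 CPM and Clec4g at 4.95 and 45.01 CPM; their part was not tested. Whether the ratios differ between the states cannot be tested with 1 mouse per group.

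Lists around the 10 in C1q-positive macrophages, TAA against control, moved less evenly. Of 20 measured other scar-associated or lipid-associated genes, 11 were at least 2-fold higher, led by Vegfa (150 CPM in TAA, 2.52 CPM in the control) and Mmp12 (288 and 17.6 CPM), and 2 lower, Cd81 (334 and 1192 CPM) and Apoc1 (506 and 1084 CPM). Of 26 genes of lysosome and cholesterol handling 4 were higher, with Atp6v0d2, a subunit of the lysosomal proton pump, at 39.7 CPM in TAA and 1.26 CPM in the control, and 1 was lower, Nr1h3 (186 and 505 CPM). Of 23 genes of fatty acid handling 1 was higher, Dgat1, which makes triglycerides (53.7 and 21.4 CPM), and 3 were lower, including Scd1 (42.7 and 289 CPM).

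Of 12 genes of Trem2 signalling and ligands 2 were higher, Lgals3 (1322 and 357 CPM) and Apoe (34003 and 10575 CPM), and 0 lower. Of the 13 resident Kupffer genes 12 were lower and 0 higher, with Cd163 at 6.71 CPM in TAA and 474 CPM in the control and Timd4 at 14.6 and 340 CPM. Of 14 monocyte genes 7 were higher and 1 lower. The medians were 1.43 for the scar-associated list, -0.04 for lysosome and cholesterol, -0.34 for fatty acid handling, -0.10 for Trem2 signalling, -2.64 for resident Kupffer and 0.91 for monocyte genes.

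Within a C1q state, most of the 10 were within 2-fold of the mouse given TAA alone in the mice given celecoxib with TAA. In C1q-positive macrophages of the TAA+C7.5 mouse 0 were at least 2-fold higher and 1 lower than in TAA, where 0.199% and 0.184% of 13044 genes were. In the TAA+C30 mouse 0 were higher and 1 lower, where 0.106% and 0.264% of 13264 genes were. The counting interval of the ratio excluded 1 for 7 of the 10 at 7.5 mg/kg and for all 10 at 30 mg/kg. Both doses are set against the same TAA library, with 1 mouse per group and no test. The share of macrophages with C1q also differed between these libraries. In the whole monocyte or macrophage class, the median log2 ratio of the 10 was -0.72 at 7.5 mg/kg and -0.77 at 30 mg/kg. Over all genes it was 0.006 and -0.03. There Gpnmb was at 466 CPM in TAA, 264 CPM in TAA+C7.5 and 195 CPM in TAA+C30, and Trem2 at 517, 399 and 370 CPM. The part of the C1q share in these values was not tested.

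The 1 gene lower at 7.5 mg/kg was Spp1, at 103 CPM (116 UMIs) in TAA+C7.5 and 312 CPM (3161 UMIs) in TAA, a log2 ratio of -1.51 and a ratio of 0.329 (interval 0.271 to 0.396). At 30 mg/kg it stood at 396 CPM, a log2 ratio of 0.33 to TAA, and the TAA+C30 to TAA+C7.5 log2 ratio was 1.85; Spp1 was the 1 gene of the 10 at least 2-fold higher in that contrast, where 0.238% of 10911 genes were, and 0 were lower, where 0.504% were. The difference was also present within C1q-positive cells of the monocyte or macrophage class alone, with a log2 ratio of -1.49 at 7.5 mg/kg and 0.22 at 30 mg/kg. In that class 0 of the 10 were at least 2-fold higher and 2 lower at 7.5 mg/kg (Spp1 and Fabp4; 0.174% and 0.23% of genes), 0 higher and 1 lower at 30 mg/kg (Fabp4; 0.108% and 0.0929%), and 1 higher and 0 lower between the doses (Spp1; 0.28% and 0.252%). Kupffer-cluster cells do not enter these values, and in cluster 17 the levels were 112 CPM in TAA+C7.5 and 330 CPM in TAA. The share of C1q-positive macrophages with an Spp1 UMI, after each cell was thinned to 1000 UMIs, was 8.38% in TAA+C7.5 (exact binomial interval 4.77 to 13.4%) and 12.9% in TAA (10.6 to 15.5%), 21.5% and 52.2% before thinning; T cells had 2.44% and 4.68% after thinning. In cholangiocytes Spp1 was at 26676 CPM in TAA+C7.5 and 27748 CPM in TAA.

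The 1 gene lower at 30 mg/kg was Fabp4, at 5.62 CPM (16 UMIs) in TAA+C30 and 27.4 CPM (278 UMIs) in TAA (log2 ratio -1.26); in TAA+C7.5 it was at 11.5 CPM (13 UMIs, -0.80). Endothelial cells, in which Fabp4 is highest, were not compared at 30 mg/kg, and the summed endothelial markers of these macrophages were 54.4 CPM in TAA+C30, 166 CPM in TAA+C7.5 and 135 CPM in TAA. The other 8 genes ranged from a log2 ratio of -0.43 (Fabp5) to 0.12 (Trem2) at 7.5 mg/kg and from -0.50 (Cd36) to 0.55 (Cd9) at 30 mg/kg. Cd36 was at 156 CPM in TAA+C7.5 and 147 CPM in TAA+C30, against 212 CPM in TAA, and Gpnmb at 468 and 457 CPM against 571 CPM. Trem2 was at 645 and 754 CPM, against 593 CPM in TAA.

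**Figure D4:**
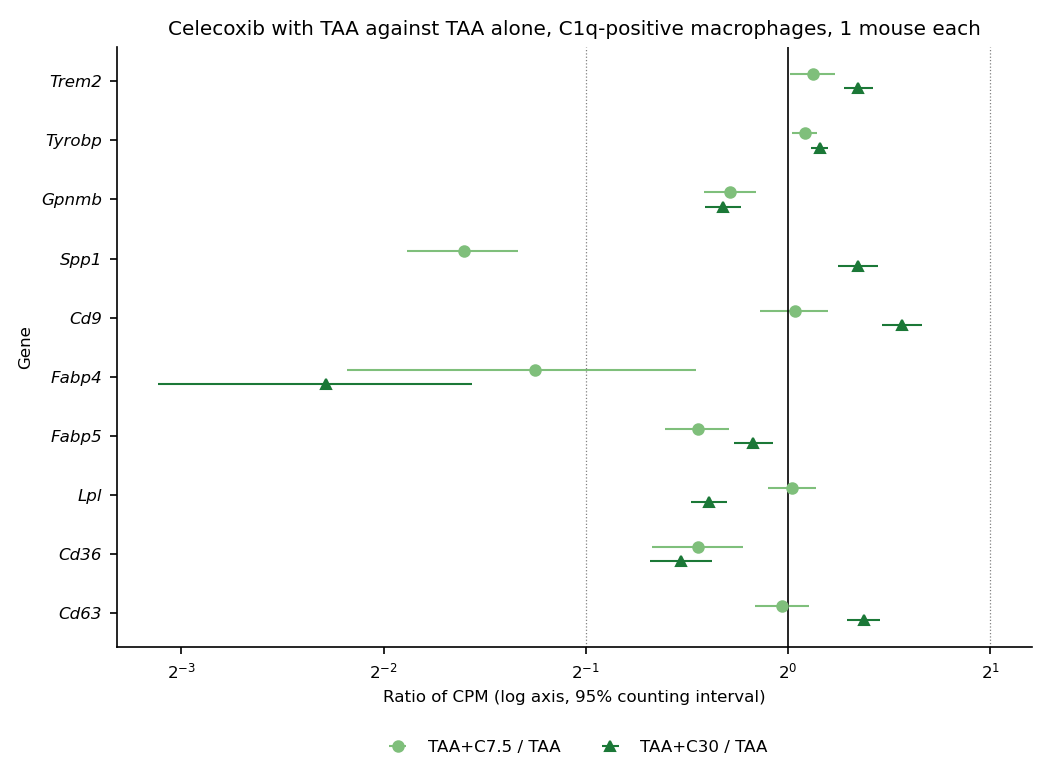
Ratio of CPM in TAA+C7.5 (circles) and TAA+C30 (triangles) to CPM in TAA alone (log axis) in C1q-positive macrophages, with 95% counting intervals; dotted lines mark a ratio of 2 in either direction. Spp1 at 7.5 mg/kg (0.329) and Fabp4 at both doses are the points left of the lower dotted line.

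In C1q-negative macrophages neither dose had a gene of the 10 at least 2-fold higher or lower than TAA, where 0.289% and 0.368% of genes were at 7.5 mg/kg and 0.204% and 0.239% at 30 mg/kg. Between the doses, too, 0 of the 10 were, where 0.24% of genes were higher and 0.166% lower. In C1q-positive macrophages none of the 20 or 21 other scar-associated genes measured passed 2-fold at either dose, and Hilpda, a lipid droplet protein, was the lowest fatty acid gene at 7.5 mg/kg (62.9 CPM in TAA+C7.5, 127 CPM in TAA). Of the fatty acid list 1 gene was lower at 30 mg/kg, Scd1 (14.4 CPM in TAA+C30, 42.7 CPM in TAA), and of the lysosome and cholesterol list Atp6v0d2 (10.5 and 39.7 CPM). Of 13 resident Kupffer genes 7 were lower at 30 mg/kg, where Kupffer-cluster cells were 18 of 403, and 1 was higher at 7.5 mg/kg, Cd163 (59.3 CPM in TAA+C7.5, 6.71 CPM in TAA).

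In single cells the genes were unevenly spread among C1q-positive macrophages. After thinning to 1000 UMIs, Gpnmb was detected in 23.1% of them in TAA, 24.02% in TAA+C7.5, 21.8% in TAA+C30 and 0.450% in the control, and Trem2 in 38.0%, 37.4%, 45.6% and 2.25%. T cells, which should lack both, had at most 0.628% for Gpnmb and 0.425% for Trem2, and C1q-negative macrophages 1.66%, 1.88%, 4.91% and 1.45% for Gpnmb. Lpl was detected in 24.2%, 27.4%, 18.7% and 54.1% of C1q-positive macrophages, highest in the control, where Gpnmb was lowest, and Cd63 had 25.2%, 20.7%, 28.5% and 3.60%. Before thinning the Gpnmb shares were 51.4%, 39.8%, 44.7% and 0.348%. After thinning the median C1q-positive macrophage held UMIs of 2 of the 10 genes in each TAA-treated library and of 1 in the control.

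In the TAA library, cells with a Gpnmb UMI more often held UMIs of each of the others among the 10. Cd63 was detected in 48.6% of the 177 cells with Gpnmb (exact interval 41.0 to 56.2%) and 18.2% of the 589 without (15.1 to 21.5%). Fabp5 was detected in 36.7% with Gpnmb and 10.9% without, Cd9 in 33.9% and 15.3%, Trem2 in 51.4% and 34.0%, and Cd36 in 24.9% and 10.7%. Lpl was in 32.8% and 21.6%, Spp1 in 19.8% and 10.9%, Tyrobp in 89.8% and 80.6%, and Fabp4 in 2.26% and 0.340%. The Fabp4 shares rest on very few cells on both sides. Gpnmb itself was detected in 25.8% of the C1q-positive cells of the monocyte or macrophage class and 7.89% of those of the Kupffer cluster in this library, and the part of this make-up in the shares was not tested.

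The same order held in the libraries with celecoxib for Cd63 and Fabp5. In TAA+C30, Cd63 was detected in 48.2% of the 85 cells with Gpnmb and 23.0% of the 305 without, and Fabp5 in 36.5% and 10.5%. In TAA+C7.5, Cd63 was detected in 46.5% of the 43 cells with Gpnmb and 12.5% of the 136 without, and Fabp5 in 32.6% and 8.82%. Fabp4 was not more often detected with Gpnmb in TAA+C7.5 (0% with and 1.47% without) or TAA+C30 (0% and 0.656%), nor was Tyrobp in TAA+C7.5 (81.4% and 82.4%). Cells that held Trem2, Gpnmb and Spp1 together numbered 25 of 766 in TAA and 2 of 179 in TAA+C7.5. They numbered 11 of 390 in TAA+C30 and 0 of 222 in the control. A floor of 3 cells would be a share of 1.35% in the control, for cells with UMIs of all 3 at this depth. This floor is not an exact interval. Cells of 1 mouse are not replicates, and these shares are a description of each library.

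**Figure D5:**
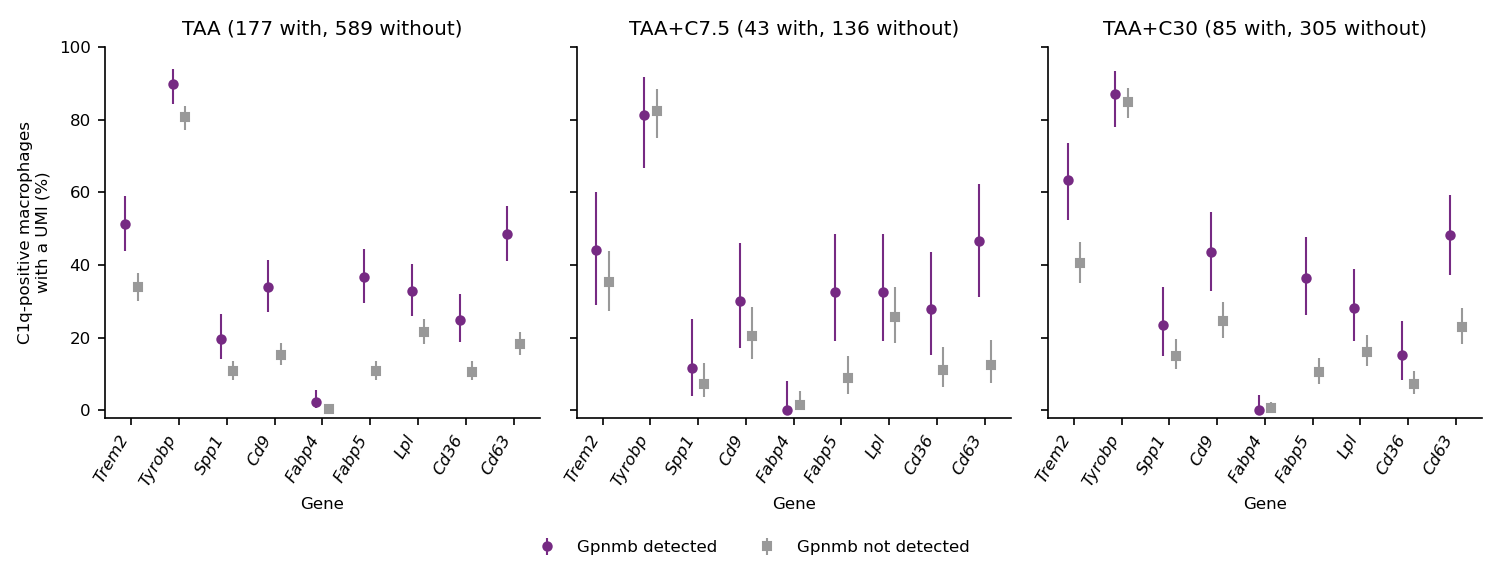
Share of C1q-positive macrophages, each thinned to 1000 UMIs, with a UMI of each gene among cells with a Gpnmb UMI (circles) and without one (squares), in the 3 TAA-treated libraries, with exact 95% binomial intervals. Cd63 and Fabp5 lie higher with Gpnmb in all 3 panels, without overlap of the intervals, and Tyrobp is close to the top in both groups of cells.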

How the data were processed

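Single-cell counts were analysed for 4 libraries of hepatic nonparenchymal cells, 1 mouse per group. Values are the authors' deposited UMI counts, not normalized; Cell Ranger 3.1.0 and mm10 are named in the submitters' processing notes, and 10x 3' v2 chemistry in the labels' protocols; the annotation used is not given in the sources used here. The libraries held 48419305 (TAA), 17888247 (TAA+C7.5), 27555592 (TAA+C30) and 26603317 (control) UMIs, and depth limits the precision of low genes.

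Barcodes with under 200 genes or over 20% mitochondrial UMIs and 52, 172, 116 and 122 doublets called by Scrublet in Scanpy 1.11.5 were removed. Cells were clustered (Leiden, 2000 variable genes, 30 components, resolution 1; mixed clusters again at 0.5) without the 10 genes and C1q, and clusters were named from marker lists (3 markers, 2-fold, 10% of cells). These naming limits were set with the data at hand; 4.30%, 2.44%, 3.08% and 2.10% of cells stayed unnamed. C1q-positive macrophages had at least 1 UMI of each of the 3 C1q genes, and C1q-negative macrophages had none; cells with 1 or 2 of them (135, 25, 181 and 103) entered neither.

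Sums per library were tested between C1q states with edgeR 4.0.16 (R 4.3.3; TMM, quasi-likelihood, mouse as block, since both sums come from the same mouse), adjusted over all genes; DESeq2 1.42.0 was an alternative. The test was checked on simulated data. Groups were compared as log2 ratios of CPM with 10 CPM added, in classes with 50 cells and genes with 10 UMIs, with exact conditional binomial intervals and no p-value. The 10 genes are always named; of each list up to 2 genes at either end are named. The genes, lists and comparisons were chosen with earlier results of these data known, and the repeat within the Kupffer cluster was added after seeing the data. All 55450 gene IDs matched GENCODE M21. A few genes that this rule would name are not reported here.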

Additional observations from a re-analysis of the deposited data

Results flagged for a closer look

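These results were singled out because a gene moved in opposite directions in 2 libraries, doses or C1q states, with both counting intervals excluding no change; with 1 mouse per group the difference itself was not tested. Fabp5 was lower in C1q-positive than in C1q-negative macrophages of the control library (ratio 0.176) and higher in those of the 3 TAA-treated libraries (ratios 4.56, 4.37 and 2.62). Spp1 in C1q-positive macrophages was lower in TAA+C7.5 than in TAA (log2 ratio -1.51) and higher in TAA+C30 than in TAA (0.33), both against the same TAA library; with classes from marker scores the second ratio was -0.02.

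The other opposite movements were small in at least one of the states or doses. Fabp5 in C1q-negative macrophages had a log2 ratio to TAA of -0.34 at 7.5 mg/kg and 0.58 at 30 mg/kg. At 7.5 mg/kg Trem2 had 0.12 in C1q-positive and -0.55 in C1q-negative macrophages. At 30 mg/kg Gpnmb had -0.32 in C1q-positive and 0.72 in C1q-negative macrophages, Cd9 0.55 and -0.31, and Fabp5 -0.17 and 0.58. Fabp4 had -1.26 and 0.52, on 16 and 34 UMIs in the TAA+C30 library.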

How the results depend on the processing

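Between the C1q states, 1634 genes were higher and 1515 lower, with 4099 at an unadjusted p under 0.05. Leaving out 1 library at a time gave 904 to 2193 higher and 764 to 2281 lower genes, 6 to 8 of the 10 higher and 0 or 1 lower; fewest were called without TAA, most without the control. With no replicate block for the mouse, 944 genes were lower, and 6 of the 10 higher and 0 lower; Trem2 and Tyrobp lost their calls (adjusted p = 0.088 and 0.155, edgeR). Spp1 lost its call where C1q-negative meant not all 3 genes (adjusted p = 0.069) and where C1q was read after thinning (0.097), Lpl in the monocyte or macrophage class alone (0.099), and Cd9, Cd36 and Tyrobp with classes from marker scores (0.107, 0.073 and 0.052), which also reversed Fabp4 (-1.60). Fabp4 passed the threshold with DESeq2, with library totals, with no filter, with doublets kept and without TAA+C30 (adjusted p = 0.032, 0.049, 0.0032, 0.041 and 0.0068). DESeq2 called 1224 genes higher and 1217 lower, and 8 and 1 of the 10.

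For TAA against control, the count of genes lower, 1, became 0 under TMM scaling (Lpl at -0.66) and 0 in the monocyte or macrophage class alone, where Lpl was reversed (2.48); it became 2 with 1 CPM added, with the mean of per-cell CPM and with classes from marker scores. At 7.5 mg/kg the count of genes lower, 1, became 2 with 1 CPM added, with C1q state after thinning and in the monocyte or macrophage class alone. The causes were not tested. Values resting on a few UMIs, Fabp4 throughout and Gpnmb and Cd63 in the control, are limited by depth.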

Other observations

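Cells of the unnamed clusters led by Ace held another part of the 10 genes than C1q-positive macrophages did (143 cells in TAA, 115 in TAA+C7.5, 102 in TAA+C30 and 91 in the control). Fabp4 was at 481, 552, 224 and 330 CPM in them, Cd36 at 519, 404, 330 and 496 CPM, and Cd9 at 420, 481, 314 and 445 CPM, in the order of the libraries just given. Gpnmb had 0, 0, 1 and 0 UMIs and Cd63 8, 3, 8 and 0 UMIs. Trem2 was at 36.1, 55.5, 82.4 and 11.5 CPM, and C1qa at 27.8, 15.4, 0 and 9.22 CPM. Ace, and Treml4, a leading gene of most of these clusters, are both in the list of monocyte genes used here. In endothelial cells, too, Fabp4, Cd36 and Cd9 were high where Gpnmb was at most at 1.497 CPM.

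Some of the 10 also differed with TAA outside macrophages. In endothelial cells Cd63 was at 120 CPM in TAA and 9.002 CPM in the control (log2 ratio 2.78), but different clusters held most of these cells. Cluster 14, led by Ednrb, Armcx4 and Selp, held 212 of the 308 TAA cells and 74 of the 2897 control cells, cluster 4 held 19 and 1723, and cluster 11 held 77 and 1100; the part of this make-up in the Cd63 ratio was not tested. In cholangiocytes Fabp5 was at 481 CPM in TAA and 237 CPM in the control (0.99), while Spp1 was at 27748 and 22175 CPM (0.32). There was 1 mouse on each side.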
